A study of Bos taurus with 6 samples.

Results

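Mesenchyme is the loose embryonic tissue under the epithelium from which the wall of the foregut forms. PITX1, TCF21, OSR1, HLX and GATA4 are transcription factors grouped here as foregut mesenchyme factors, a name that does not say which cells held them. They were taken by name from the count table, and all 5 were among its 14179 gene symbols. Poly(A) RNA was sequenced from the rumen, a forestomach chamber of cattle, the liver and the forebrain of Holstein fetuses at 90 days, and every library is labelled male. All 6 libraries were labelled wild type, and each tissue had 2 libraries, called here Rumen 1 and 2, Liver 1 and 2, and Forebrain 1 and 2. The study collected 4 slaughterhouse fetuses, 2 male and 2 female, with crown-rump lengths of 13 to 16 cm, so that by these labels the libraries come from at most 2 fetuses. No label ties a library to a fetus, and the p-values below therefore reflect the spread between libraries, which may be technical.

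The rumen wall grows from foregut endoderm, which becomes the epithelium, and from the splanchnic mesoderm around it, which becomes the connective tissue and smooth muscle. Signals such as hedgehog proteins pass from the epithelium to the mesenchyme, and factors expressed there in regional patterns give each segment of the gut its character. The roles of the 5 factors are known mainly from mouse. PITX1 is a homeobox factor of the hindlimb, the pituitary and the oral region. TCF21 is a basic helix-loop-helix factor of visceral mesenchyme in kidney, lung, spleen and epicardium. OSR1 is a zinc finger factor of the intermediate and lateral plate mesoderm. HLX is a homeobox factor of the visceral mesenchyme that the growth of mouse gut and liver requires. GATA4 is a zinc finger factor of the heart, the foregut, the gonads and the mesenchyme of the early liver.

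Levels below are in CPM, for which each count was divided by the library's total count times a composition factor. Total counts ran from 10271024 (Forebrain 1) to 18528958 (Liver 2). The floor used here, 3 counts summed over the library pair, corresponded to 0.116 CPM in rumen, 0.103 in liver and 0.115 in forebrain. These floors and the counting intervals below cover counting error only. Between Liver 1 and 2 the SD of gene log2 ratios was 0.946 among genes with mean counts of 1000 or more, and the same SD was 0.212 in rumen and 0.249 in forebrain. In whole tissue, fewer cells of a type and less RNA per cell cannot be told apart. The files give no transcript lengths, so levels are compared between tissues and not between genes.

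As to level in rumen, the name foregut mesenchyme factors fits these data in part. Which cells of the rumen wall held the transcripts was not tested. PITX1, TCF21 and OSR1 were most abundant in rumen, HLX stood at levels in rumen and liver that the test did not separate, and GATA4 was at or under the floor in rumen and was a liver transcript here.

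**Figure D1:**
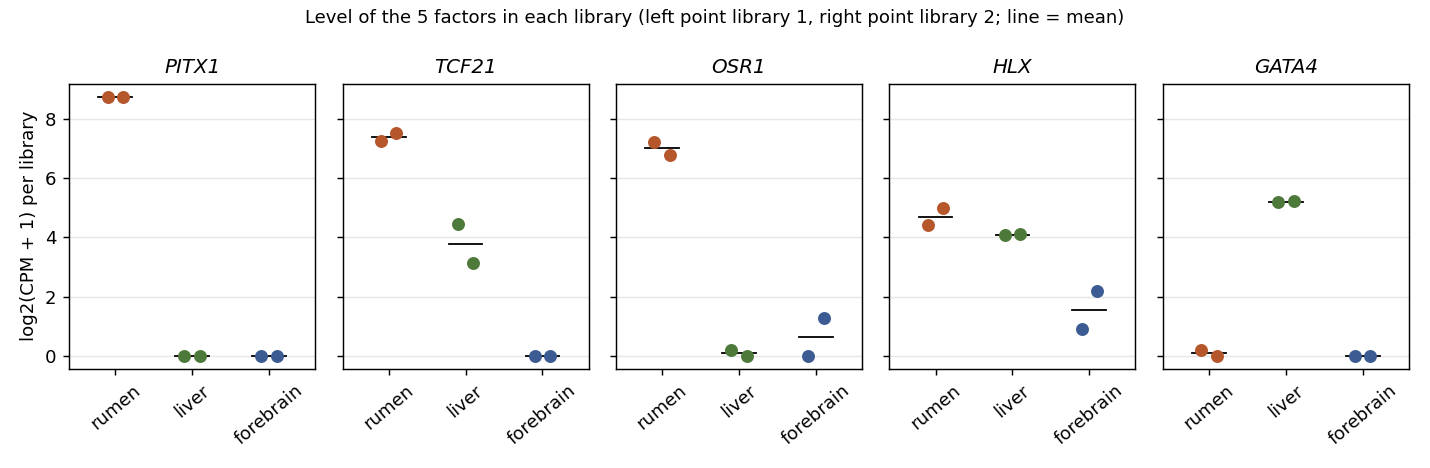
Level of each factor in the 6 libraries, as log2(CPM + 1) on the y axis, by tissue on the x axis. Each point is a library and the line is the mean of 2. PITX1 stands above 0 in the rumen libraries only, at 424 and 428 CPM, and GATA4 in Liver 1 and 2 at 35.5 and 36.3 CPM, with 2 counts in Rumen 1.

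PITX1 had the simplest profile. It had 5535 and 5478 counts in Rumen 1 and 2, which is 424 and 428 CPM, against 0 counts in Liver 1, Liver 2, Forebrain 1 and Forebrain 2. The rumen libraries differed little from each other, and no count was seen in the 4 libraries of the other tissues. The mean in rumen was 426 ± 2.79 CPM (SD, n = 2). Its pooled level was at least 4113-fold higher in rumen than the floor of liver (adjusted p = 0.000245, edgeR, quasi-likelihood fit over all tested genes, Benjamini-Hochberg). Against the floor of forebrain it was at least 3709-fold higher (adjusted p = 0.00031, same test). A bound of this kind shrinks by construction where only 1 library of the empty tissue is kept. It was at least 2208-fold without Liver 1, 1905-fold without Liver 2, 1965-fold without Forebrain 1 and 1744-fold without Forebrain 2.

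TCF21 was graded over the 3 tissues. It stood at 150 and 181 CPM in Rumen 1 and 2, at 20.8 and 7.71 CPM in Liver 1 and 2, and had no counts in either forebrain library. Both rumen libraries lay above both liver libraries, and both liver libraries above both forebrain libraries. Rumen averaged 166 ± 21.8 CPM and liver 14.3 ± 9.29 CPM (SD, n = 2 each), an 11.6-fold higher level in rumen with a log2 fold change of 3.54 ± 0.53 (SE), at an adjusted p of 0.00478 in edgeR. That fold was 21.5 without Liver 1, the liver library with the higher TCF21 level, and 7.95 without Liver 2. Against forebrain the pooled level was at least 1444-fold higher in rumen (adjusted p = 0.000643) and at least 120.2-fold higher in liver (adjusted p = 0.00098, same edgeR test). Without a library these bounds were 765-fold (no Forebrain 1) and 679-fold (no Forebrain 2) for rumen. For liver they were 63.7-fold without Forebrain 1, 56.5-fold without Forebrain 2, 67.2-fold without Liver 1 and 182-fold without Liver 2.

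The 2 liver libraries differed in TCF21, and some other transcripts differed with it. TCF21 marks hepatic stellate cells, the mesenchymal cells along the liver sinusoids, in mouse. Of 9 markers of stellate cells and pericytes, 6 were also higher in Liver 1. Among them the receptor PDGFRB stood at 180 and 89.8 CPM and the growth factor HGF at 12.8 and 4.56 CPM in Liver 1 and 2. The other 3 ran the opposite way, with LHX2 at 15.0 and 54.0 CPM, ECM1 at 102 and 146 CPM and RELN at 116 and 130.3 CPM in Liver 1 and 2, and the summed level of the list was 573 and 546 CPM. Of 10 fibroblast and matrix genes, 8 were higher in Liver 1, with a summed level of 1866 and 1841 CPM in Liver 1 and 2. Other lists differed too, with 10 of 12 blood cell, 8 of 9 endothelial and 7 of 10 smooth muscle genes higher in Liver 1. Of 8 hepatocyte genes, 5 were higher in Liver 2, as were all 3 mesothelium genes. The share of all genes higher in Liver 1 was not computed, so these counts lack a background. None of the 9 stellate markers was without counts in liver. The part of these cells in the difference was not tested.

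OSR1 was a rumen transcript with traces elsewhere. It stood at 148 and 109 CPM in Rumen 1 and 2, had 2 and 0 counts in Liver 1 and 2, and 0 and 20 counts in Forebrain 1 and 2. The rumen libraries were far above the other 4, and only Forebrain 2, at 1.44 CPM, exceeded the floor outside rumen. Rumen averaged 129 ± 27.2 CPM (SD, n = 2). Compared with liver, the ratio of pooled levels was 1868, with an exact 95% counting interval from 517 to 15430, and OSR1 was higher in rumen (adjusted p = 0.00161, edgeR). The ratio was 865 without Liver 2, and at least 669 without Liver 1, whose 2 counts were the only ones in liver. Compared with forebrain, OSR1 was 170.3-fold higher in rumen, with a log2 fold change of 7.41 ± 1.07 (SE) (adjusted p = 0.00285, same test). This fold was 89.9 without Forebrain 1, and at least 528 without Forebrain 2. Between liver and forebrain, at 2 and 20 counts, the ratio was 11.1 lower in liver (2.69 to 97.8) and did not pass (adjusted p = 0.137, edgeR), but it passed without Forebrain 1 (log2 fold change -4.21, adjusted p = 0.0215, edgeR) and changed sign without Forebrain 2 (3.08, adjusted p = 0.39, edgeR). Over its alternatives that p ran from 0.0215 to 0.494.

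Some fibroblast transcripts were also higher in Forebrain 2. Of the 10 fibroblast and matrix genes, 9 were higher in Forebrain 2, with a summed level of 470 and 545 CPM in Forebrain 1 and 2. Most of that sum came from THY1 at 213 and 218 CPM, PDGFRA at 91.2 and 92.2 CPM and FN1 at 85.05 and 97.2 CPM. THY1 averaged more in forebrain, at 216 CPM, than in rumen, at 113 CPM, so the sum is not a measure of fibroblasts here. The collagen gene COL1A2 stood at 5.20 and 25.9 CPM and the matrix proteoglycan DCN at 5.86 and 19.9 CPM in Forebrain 1 and 2, while FBN1, a microfibril gene, stood at 20.0 and 10.6 CPM. Of the 9 stellate cell and pericyte genes, 8 were higher in Forebrain 1. Their summed level, 389 and 349 CPM in Forebrain 1 and 2, was mainly that of RELN (266 and 244 CPM) and LHX2 (73.8 and 65.1 CPM). RELN averaged more in forebrain, at 255 CPM, than in liver, at 123 CPM, so the list cannot be read as a mark of these cells here. Other lists went either way, with 8 of 9 endothelial genes higher in Forebrain 2 and blood cell genes split 6 and 6. The share of all genes higher in Forebrain 2 was not computed, so these counts lack a background. HLX was higher in Forebrain 2, as given next. Whether these transcripts and the traces of OSR1 share a source was not tested.

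HLX was present in all 3 tissues. Its level was 20.2 and 30.8 CPM in Rumen 1 and 2, 15.8 and 16.3 CPM in Liver 1 and 2, and 0.894 and 3.54 CPM in Forebrain 1 and 2. All rumen and liver libraries lay above both forebrain libraries, and both rumen libraries above both liver libraries by a small margin. Rumen averaged 25.5 ± 7.46 CPM, liver 16.05 ± 0.376 CPM and forebrain 2.22 ± 1.87 CPM (SD, n = 2 each). Between rumen and liver the log2 fold change was 0.67 ± 0.60 (SE), a difference that did not pass (adjusted p = 0.407, edgeR). HLX was 11.4-fold higher in rumen than in forebrain, with a log2 fold change of 3.51 ± 0.67 (SE) (adjusted p = 0.00801, same test). It was 7.17-fold higher in liver than in forebrain, with a log2 fold change of 2.84 ± 0.65 (SE) (adjusted p = 0.0109, same test).

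The forebrain libraries decide the size of these folds. For rumen against forebrain the fold of HLX was 7.30 without Forebrain 1 and 28.8 without Forebrain 2. Without Rumen 2 the call was lost, at 9.20-fold and adjusted p = 0.0539 (edgeR; lowest and highest over all 14 alternatives 2.33e-06 and 0.0539). For liver against forebrain the fold was 4.52 without Forebrain 1 and 17.8 without Forebrain 2.

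GATA4 was the exception among the 5. It had 2 and 0 counts in Rumen 1 and 2, 477 and 565 counts in Liver 1 and 2, and 0 counts in both forebrain libraries. In CPM the liver libraries stood at 35.5 and 36.3, a mean of 35.9 ± 0.55 (SD, n = 2), while the rumen libraries stood at 0.153 and 0. The groups did not overlap, and rumen was at or under the floor of 3 counts. GATA4 was lower in rumen than in liver by a ratio of 465, with an exact 95% counting interval from 128 to 3844 (adjusted p = 0.00127, edgeR). That ratio was 235 without Rumen 2, and at least 154 without Rumen 1. Against forebrain it was at least 313-fold higher in liver (adjusted p = 0.000612, same test), or 166-fold without Forebrain 1 and 147-fold without Forebrain 2. No fold is given between rumen and forebrain, both at or under the floor.

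GATA4 and TCF21 thus differed in how alike the liver libraries were. GATA4 was near equal in Liver 1 and 2 where TCF21 stood at 20.8 and 7.71 CPM. Other tissues in which GATA4 is known were looked for by their markers. Of 6 heart muscle genes, the summed level in liver was 6.70 and 1.61 CPM, and TNNT2 and TNNI3, troponins of the heart, had 2 and 0 counts each in Liver 1 and 2. NR5A1, a factor of the adrenal cortex and the gonads, stood at 10.9 and 3.28 CPM in Liver 1 and 2 and had no counts in rumen or forebrain. STAR and AMH of the same list ran the other way, at 4.91 and 20.6 CPM and at 0.819 and 7.19 CPM in Liver 1 and 2. The part of such cells in the GATA4 level was not tested.

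**Figure D2:**
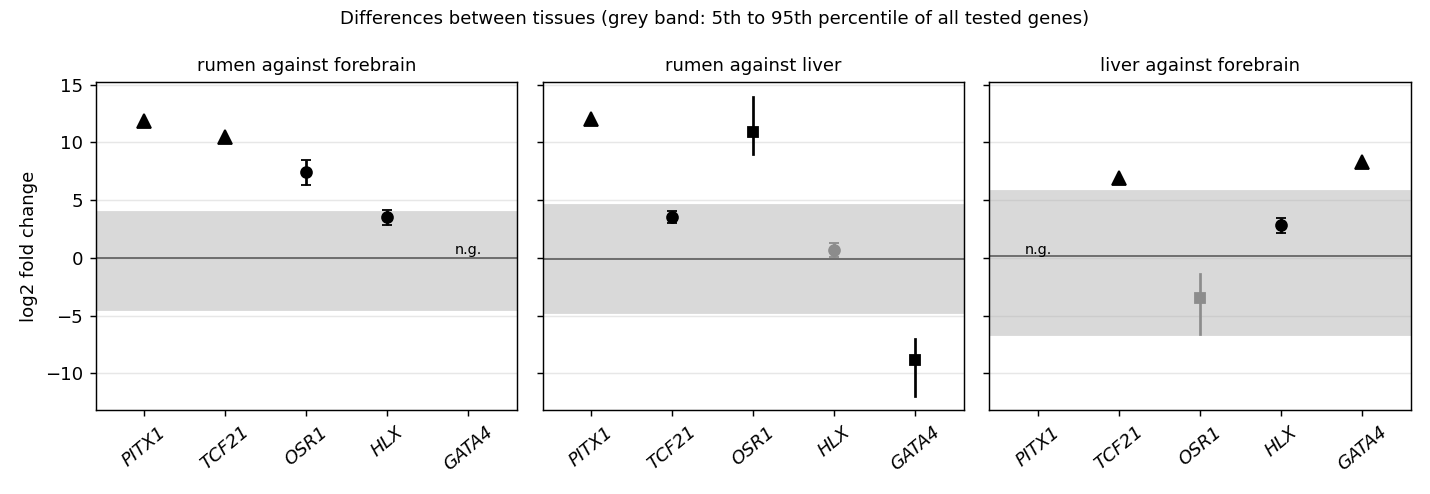
Log2 fold change of each factor (y axis) in the 3 comparisons. Circles are edgeR fold changes with SE, triangles are lower bounds against a tissue without counts, squares are ratios with exact 95% counting intervals, grey symbols did not pass, and "n.g." marks genes with no fold given. The grey band holds the middle 90 in 100 of all 11478 tested genes. In rumen against forebrain it ends at 3.99, below PITX1, TCF21 and OSR1 and above HLX at 3.51.

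Set against all genes, 4 of the 5 factors were higher in rumen than in forebrain, and 0 were lower, where 39.3% of the 11478 tested genes passed, 19.5% higher and 19.9% lower. In rumen against liver 3 were higher and 1 lower, GATA4, where 40.3% of tested genes passed, 20.1% higher and 20.3% lower. In liver against forebrain 3 were higher, TCF21, HLX and GATA4, and 0 lower, where 55.3% of tested genes passed, 29.4% higher and 25.9% lower. These counts are a description only. All 5 passed the filter on low counts, but PITX1 and OSR1 passed it only through rumen and GATA4 only through liver, so those 3 had to differ between tissues. The 3 comparisons share libraries and are not independent of each other.

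The other factors of the same tissue layer gave a mixed picture. Of 25 other foregut and stomach mesenchyme factors on the list, 18 were in the table and 10 passed the filter. BARX1, FOXF1, FOXF2, FOXL1, HAND2, TBX3 and HOXB5 were not analysed here. Against forebrain 5 of the 10 were higher in rumen, NKX2-3, MEIS1, OSR2, HOXA5 and TWIST1, and 1 lower, MEIS2. Over all tested genes 19.5% were higher and 19.9% lower. The median log2 fold change of the 10 was 2.06, against -0.01 over all tested genes. Against liver 6 were higher in rumen, among them MEIS1, MEIS2, ISL1, OSR2 and TWIST1, and 0 lower. Here the median was 3.72, against -0.06 over all tested genes, of which 20.1% were higher and 20.3% lower. In liver against forebrain 2 were higher and 4 lower, with a median of -1.51 (-1.67 with genes without counts in a tissue at their bound), against 0.14 over all tested genes. Of all tested genes 29.4% were higher there and 25.9% lower. OSR2 and TWIST1 had enough counts for the filter in rumen libraries only, so like PITX1 and OSR1 they had to differ between tissues. These counts, too, are a description only.

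Family members of the 5 factors were read beside them. OSR2, the paralog of OSR1, was also highest in rumen. It stood at 14.4 and 6.87 CPM in Rumen 1 and 2, and had 3 counts in Liver 1, 3 in Forebrain 1 and 0 in Liver 2 and Forebrain 2. Its ratio of rumen to forebrain was 93.0 (exact 95% counting interval 31.5 to 454; adjusted p = 0.0142, edgeR), and the call was lost without Forebrain 2 (ratio 43.7, adjusted p = 0.0896) or Rumen 1 (ratio 59.9, adjusted p = 0.0865). It was at least 49.2-fold without Forebrain 1. The ratio of rumen to liver was 103 (34.9 to 503; adjusted p = 0.013, edgeR), 66.4 without Rumen 1 (adjusted p = 0.0806), 47.8 without Liver 2 and at least 55.3 without Liver 1.

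The GATA family divided between tissues. GATA1, the erythroid GATA factor, had 0 counts in both rumen libraries and stood at 302 and 232 CPM in Liver 1 and 2 (adjusted p = 0.000269, edgeR). The blood cell markers followed the same order, with a summed level of 229.9 and 252 CPM in Rumen 1 and 2 against 35220 and 17890 CPM in Liver 1 and 2. GATA5, a factor of gut endoderm and heart in mouse, stood at 3.596 and 6.17 CPM in Rumen 1 and 2, 2.61 and 4.69 CPM in Liver 1 and 2, and 0 and 0.794 CPM in Forebrain 1 and 2, and passed in none of the comparisons. GATA6 and the GATA cofactors ZFPM1 and ZFPM2 were not analysed here.

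**Figure D3:**
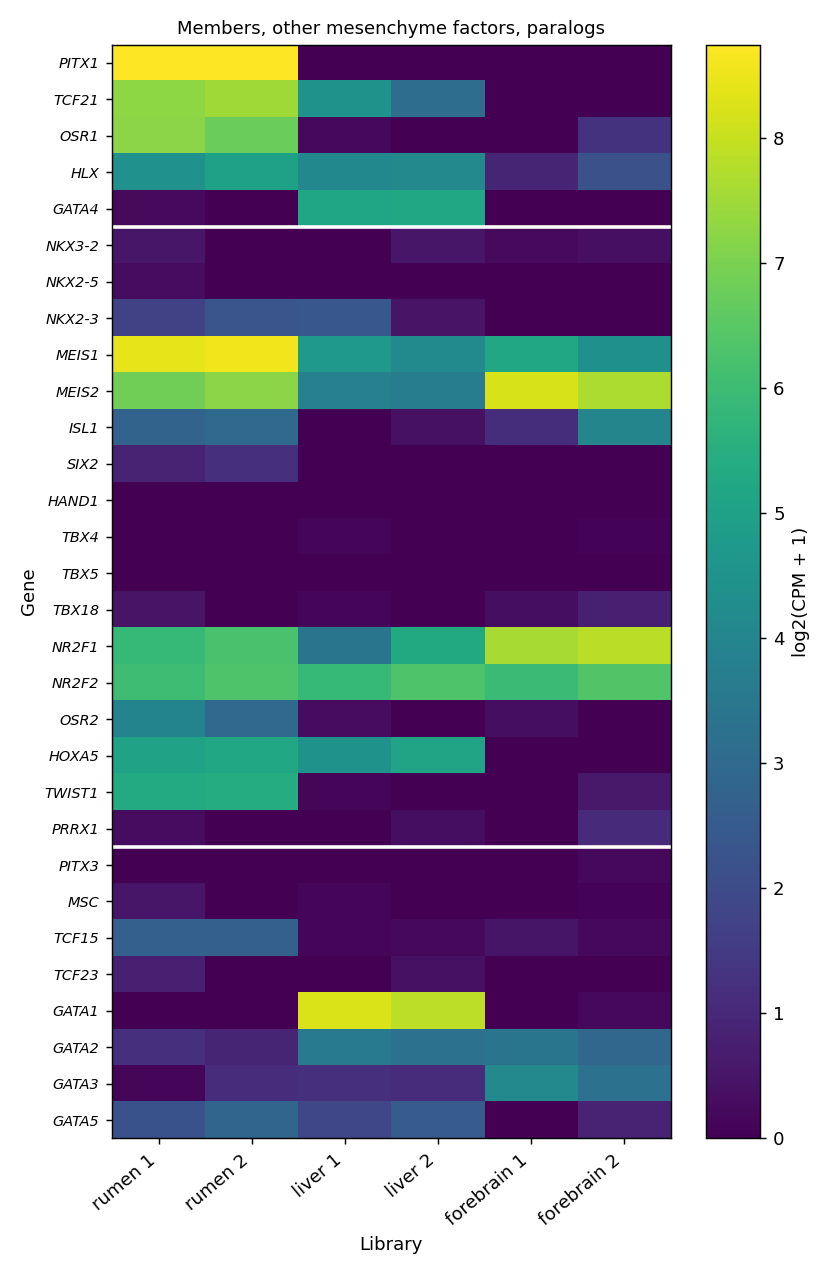
Levels of the 5 factors (top block), other mesenchyme factors (middle block) and further family members (bottom block) in each library, coloured by log2(CPM + 1). GATA4 and GATA1 are bright in the liver columns, while PITX1, MEIS1 and TWIST1 are brightest in the rumen columns.

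TWIST1 and MEIS1 gave clear rumen levels among the remaining factors. TWIST1, a basic helix-loop-helix factor of mesenchyme, stood at 39.8 and 41.3 CPM in Rumen 1 and 2, had 1 and 0 counts in Liver 1 and 2, and 0 and 7 counts in Forebrain 1 and 2. Against liver its ratio was 1175 (exact 95% counting interval 210.5 to 46470; adjusted p = 0.00158, edgeR), at least 210.3 without Liver 1 and 544 without Liver 2. Against forebrain it was 149-fold higher (adjusted p = 0.00262, edgeR), 80.0-fold without Forebrain 1 and at least 166-fold without Forebrain 2. As with OSR1 and HLX, the forebrain counts of TWIST1 were in the main those of Forebrain 2. MEIS1, a homeobox partner of HOX proteins, averaged 358 ± 18.6 CPM in rumen and 21.5 ± 5.94 CPM in liver (SD, n = 2 each), 16.7-fold higher in rumen (adjusted p = 0.000601, edgeR).

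MEIS2 and HOXA5 had other orders of tissues. MEIS2 averaged 130.3 ± 24.5 CPM in rumen, 12.4 ± 0.614 CPM in liver and 249.9 ± 68.5 CPM in forebrain (SD, n = 2 each). It was 10.5-fold higher in rumen than in liver (adjusted p = 0.000481, edgeR) and lower in rumen than in forebrain by 1.92-fold (adjusted p = 0.0354, edgeR). The second call was lost without Forebrain 1 (adjusted p = 0.275), Forebrain 2 (0.0689), Rumen 1 (0.219) or Rumen 2 (0.108). HOXA5, a homeobox gene of the trunk, averaged 34.0 ± 2.88 CPM in rumen and 27.2 ± 9.11 CPM in liver and had no counts in forebrain. Like HLX it was not separated between rumen and liver, with a log2 fold change of 0.32 ± 0.37 (SE; adjusted p = 0.522, edgeR).

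Some calls of the list rest on few libraries. NKX2-3, a homeobox factor of gut and spleen mesenchyme, stood at 2.30 and 3.98 CPM in Rumen 1 and 2 and at 4.24 and 0.385 CPM in Liver 1 and 2, without counts in forebrain. Its call in rumen against forebrain (adjusted p = 0.028, edgeR) was lost without any of the 4 libraries compared, at adjusted p from 0.0804 to 0.124. ISL1, a LIM homeobox factor, averaged 6.34 ± 0.744 CPM in rumen and 0.161 ± 0.227 CPM in liver (SD, n = 2 each). Its call against liver (adjusted p = 0.038, edgeR) was lost without Rumen 1 (adjusted p = 0.104) or Rumen 2 (adjusted p = 0.116), and its 5 liver counts were all in Liver 2. Fewer genes passed over all genes too where a rumen or forebrain library was left out, so lost calls are not particular to this list. The fitted log2 fold change of NKX2-3 in rumen against forebrain was 8 to 8.76 in those fits, against 8.41 with all libraries. With no counts in forebrain, that value depends on the prior count.

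Genes of the signals that pass between epithelium and mesenchyme were set beside the factors. Of 27 on the list, 23 were in the table and 22 tested. Against forebrain 10 were higher in rumen and 0 lower, with a median log2 fold change of 1.46 (1.38 with genes without counts at their bound), and 12 did not pass. Over all tested genes 19.5% were higher and the median was -0.01. Where only the 4 libraries compared were fitted, 16 of 21 tested were higher and 1 lower. The number higher fell where a forebrain or rumen library was left out. It rose where a liver library was left out, and some genes then passed as lower. The share of all genes that passed moved the same way in each case, and was 65.5% with those 4 libraries. Against liver 12 were higher and 2 lower, with a median of 1.51, where 20.1% of all tested genes were higher, 20.3% lower and the median was -0.06. SHH, GLI3 and NOG were not analysed here. The BMP receptor BMPR2, which had the highest mean CPM of the list with no account of length, stood at 149 ± 27.5 CPM in rumen, 73.7 ± 4.61 CPM in liver and 212 ± 12.3 CPM in forebrain (SD, n = 2 each). SFRP2, a secreted modulator of WNT signals, averaged 348 ± 56.6 CPM in rumen and 13.7 ± 9.83 CPM in liver (SD, n = 2 each), 25.3-fold higher in rumen (adjusted p = 0.00189, edgeR), a fold of 16.8 without Liver 1 and 51.3 without Liver 2.

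The 6 hedgehog genes of the list that were tested are given here for rumen against liver, a choice made after their values were seen. PTCH1, the receptor, stood at 4.21 and 4.92 CPM in Rumen 1 and 2 and at 5.51 and 0.771 CPM in Liver 1 and 2, and did not pass (adjusted p = 0.66, edgeR), but passed without Liver 1 (log2 fold change 2.55, adjusted p = 0.0182) and changed sign without Liver 2 (-0.27, adjusted p = 0.72). The effector GLI2 did not pass (adjusted p = 0.264, edgeR), and SMO, the signal transducer, was 2.78-fold higher in rumen (adjusted p = 0.0125, edgeR), a call lost without Rumen 1 (adjusted p = 0.0645) or Rumen 2 (adjusted p = 0.0847). GLI1, a target and effector of the pathway, stood at 16.5 and 18.4 CPM in Rumen 1 and 2 and at 0.968 and 0.771 CPM in Liver 1 and 2, 19.9-fold higher in rumen (adjusted p = 0.00213, edgeR). The 2 lower genes were HHIP, which binds and restrains hedgehog ligands, and IHH, a ligand. HHIP stood at 5.13 and 2.42 CPM in Rumen 1 and 2 and at 33.7 and 39.2 CPM in Liver 1 and 2, 9.64-fold lower in rumen (adjusted p = 0.00394, edgeR) or 15.0-fold without Rumen 1. IHH stood at 0 and 0.624 CPM in Rumen 1 and 2 and at 5.88 and 43.03 CPM in Liver 1 and 2, and its call (adjusted p = 0.0283, edgeR) was lost without Rumen 1 (adjusted p = 0.11) or Rumen 2 (adjusted p = 0.0611), with DESeq2 (adjusted p = 0.112) and with limma voom (adjusted p = 0.0536).

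Cell type markers placed the rumen level of the factors among those of a whole wall. Stratified epithelium genes summed to 14260 and 11620 CPM in Rumen 1 and 2, fibroblast and matrix genes to 17710 and 18480 CPM and smooth muscle genes to 9968 and 10580 CPM. Lists for the tissues in which the 5 factors are otherwise known were read in rumen too. Spleen and pancreas genes summed to 0.306 and 0 CPM there and skeletal muscle and limb genes to 1.68 and 0.624 CPM. Of 8 kidney and gonad genes in the table, 6 had no counts in rumen, but the steroid transport gene STAR, which was present in all tissues, stood at 26.2 ± 6.48 CPM (SD, n = 2). The pituitary factor LHX3 had no counts in any library, and the pituitary list summed to 34.5 and 35.0 CPM in Rumen 1 and 2, mainly from POMC. Heart muscle genes summed to 130.5 and 83.3 CPM in rumen, mainly from MYL4, an embryonic myosin light chain, at 122 and 73.8 CPM. The part of such cells in the rumen levels of the factors was not tested. Mesothelium could be checked by only 3 genes, UPK3B, MSLN and UPK1B, which summed to 43.6 and 29.9 CPM in Rumen 1 and 2, 2.83 and 19.3 CPM in Liver 1 and 2, and 2.11 and 4.04 CPM in Forebrain 1 and 2.

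**Figure D4:**
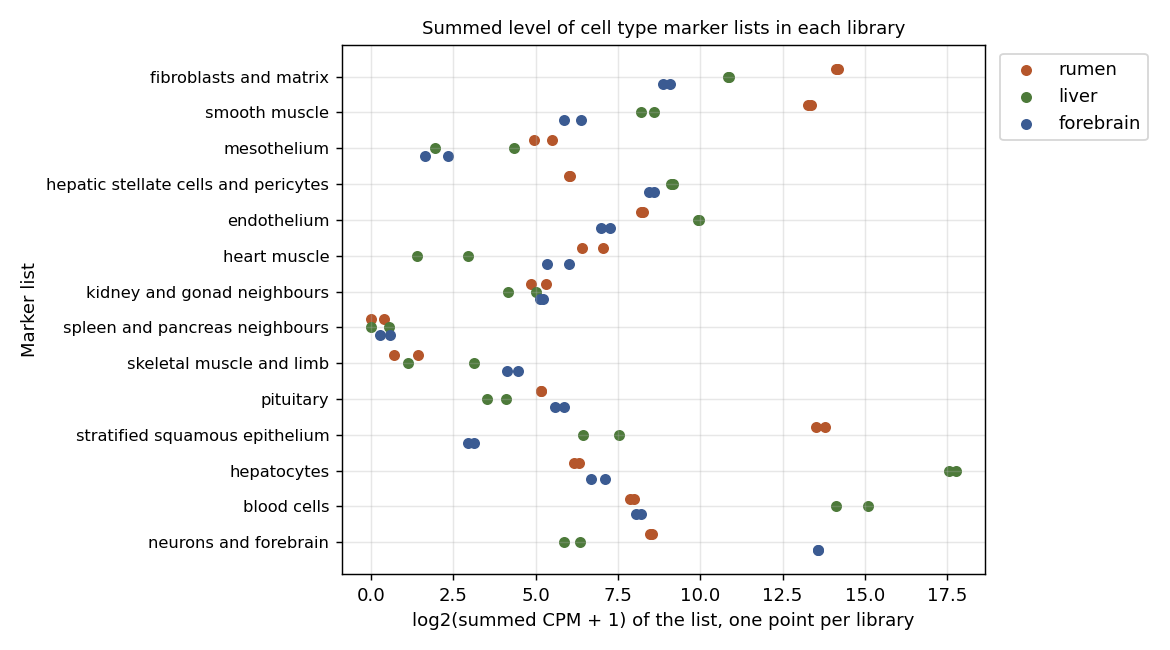
Summed level of each marker list (rows) in each library, as log2(summed CPM + 1) on the x axis, coloured by tissue. Stratified epithelium, fibroblast and smooth muscle lists are highest in the 2 rumen libraries, hepatocyte and blood lists in the 2 liver libraries, and neuron genes in the 2 forebrain libraries.

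The genes most like each factor over the 6 libraries came from several cell types. Likeness was the distance between profiles of log2(CPM + 1), each centred on its mean, among all tested genes. Nearest to PITX1 were IVL (distance 0.343), KRTDAP, UPK3BL1, ACTG2 and SFN. IVL encodes involucrin of the cornified envelope and ACTG2 a smooth muscle actin, so the nearest profiles were those of both epithelium and muscle. Among genes near 0 outside rumen, the distance depends mainly on the level in rumen, so it cannot point to a cell type. TCF21 was nearest to COL3A1 (0.961), MYLK, EMILIN1, ANXA8L1 and LY6G6E, and OSR1 to PHGR1 (0.935), TAGLN, S100A4, HSPB6 and LUM. COL3A1 is a fibrillar collagen, MYLK a myosin kinase of smooth muscle, TAGLN a smooth muscle protein and LUM a matrix proteoglycan.

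The profiles of HLX and GATA4 led to other genes. HLX was nearest to SLCO2A1 (0.494), a prostaglandin transporter, then TRIM21, TNFRSF1A, NID2 and OLFML3. Among the 5 genes nearest to GATA4 were HAO2 (0.254), LOC510860, DIO1 and KLKB1. KLKB1 encodes plasma prekallikrein, a protein made by hepatocytes, and averaged 42.9 CPM in liver, with no counts in rumen or forebrain. With a pseudocount of 0.25 in place of 1, the number of the 5 nearest genes that stayed was 3 for PITX1, 1 for TCF21, 2 for OSR1, 2 for HLX and 4 for GATA4.

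The genes beside the factors on the chromosomes were also read. The nearest protein-coding genes on either side with a row in the table were taken from RefSeq order (assembly ARS-UCD2.0), a choice made after the levels of the factors had been seen. No RefSeq gene overlapped any of the 5. MACROH2A1, a histone variant gene next to PITX1, stood at 253 ± 6.29 CPM in rumen, 132 ± 7.59 CPM in liver and 298.7 ± 1.33 CPM in forebrain (SD, n = 2 each), while CATSPER3 on the other side had 6, 0 and 6 counts summed over rumen, liver and forebrain. Like PITX1, MACROH2A1 was higher in rumen than in liver, with a log2 fold change of 0.93 (adjusted p = 0.0109, edgeR). That call was lost without either rumen library, at 0.96 without Rumen 1 and 0.93 without Rumen 2. TTC32 beside OSR1 stood at 15.98 ± 1.75 CPM in rumen, 10.0 ± 1.74 CPM in liver and 12.2 ± 1.68 CPM in forebrain (SD, n = 2 each) and passed in none of the comparisons, and NT5C1B on its other side had no counts. Where they had counts, the neighbours of PITX1 and OSR1 had them outside rumen too.

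The neighbours of TCF21, HLX and GATA4 were read in the same way. TBPL1 next to TCF21 passed in none of the comparisons, yet in liver it stood at 39.7 and 16.6 CPM in Liver 1 and 2, the same order as TCF21. RPS12, the ribosomal protein gene on the other side of TCF21, was 2.13-fold higher in rumen than in forebrain (adjusted p = 0.0241, edgeR), a call lost without any of the 4 libraries compared (adjusted p from 0.0711 to 0.163). MTARC2 next to HLX was 2.15-fold lower in rumen than in liver (adjusted p = 0.0409, edgeR), a call lost without Rumen 1 (0.193), Rumen 2 (0.179), Forebrain 1 (0.0938) or Forebrain 2 (0.0937), and with upper-quartile scaling (0.0564), no scaling (0.117), limma voom (0.0534) and 4 libraries only (0.0947). It was 2.49-fold higher in rumen than in forebrain (adjusted p = 0.0244, edgeR), a call lost without any of the 4 libraries compared (adjusted p from 0.104 to 0.148). DUSP10 on its other side passed in none of the comparisons. NEIL2 beside GATA4 likewise passed in none. BLK, a kinase of B cells on the other side of GATA4, had no counts in rumen and stood at 4.32 and 13.6 CPM in Liver 1 and 2 and at 1.55 and 2.598 CPM in Forebrain 1 and 2, and it was lower in rumen than in liver (adjusted p = 0.00478, edgeR).

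**Figure D5:**
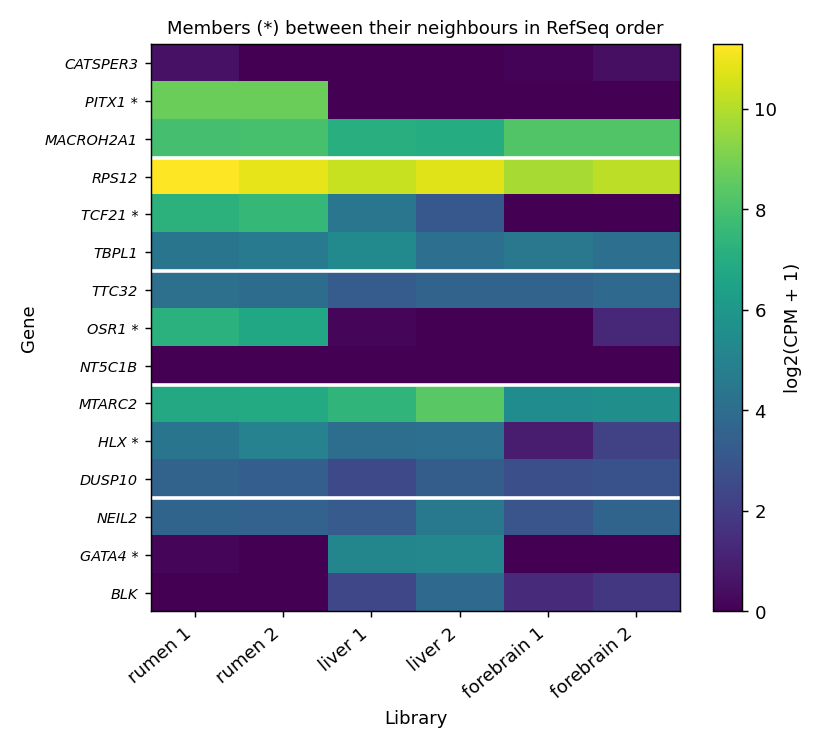
Each factor (marked *) between its neighbouring genes in RefSeq order, coloured by log2(CPM + 1) in each library. PITX1 and OSR1 are bright in rumen and dark elsewhere, while MACROH2A1 and TTC32 beside them are coloured in all 6 libraries. BLK, next to GATA4, is dark in rumen and brighter in liver, as GATA4 is, but unlike GATA4 it has counts in forebrain.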

How the data were processed

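The authors deposited raw counts per gene symbol, here from 6 libraries, 2 each of rumen, liver and forebrain. Per the submitters' processing notes, HISAT2 2.0.5, featureCounts 1.5.0-p3 and edgeR 3.18.1 were used. No label, note or file header used here names the build, the annotation or the strandedness of the counting. Antisense reads can therefore not be told apart, and coordinates are left out. Counts were tested here with edgeR 4.0.16 in R 4.3.3: TMM scaling, filterByExpr (11478 genes kept), a quasi-likelihood fit with 1 mean per tissue and 3 residual degrees of freedom, and Benjamini-Hochberg adjustment over all tested genes with 0.05 as the threshold. Fitted log2 fold changes carry a prior count of 0.125, and their SE was derived from the F statistic. Against a tissue without counts the fold is a bound against 3 counts over its kept libraries, and with 1 to 3 counts in a tissue it is a ratio of pooled levels with an exact 95% interval (Clopper-Pearson). TMM factors ran from 0.812 (Liver 1) to 1.20 (Forebrain 1). Alternatives were RLE, upper-quartile and no scaling, DESeq2 1.42.0, limma voom 3.58.1, no filter, 4 libraries only, a replicate block and leaving out each library. Scripts were tested on simulated data. The members and gene lists were chosen with earlier results of these data known. Named genes were the 5 factors, list genes by call and size or by mean CPM, and the 5 nearest profiles of each factor. Some genes of these lists are not reported here. The paralogs, hedgehog genes, chromosomal neighbours and single marker genes were chosen after their values were seen.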

Additional observations from a re-analysis of the deposited data

How the results depend on the processing

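The number of the 5 factors that passed was 4 in rumen against forebrain, 4 in rumen against liver and 3 in liver against forebrain under each scaling, DESeq2, limma voom, no filter, 4 libraries only and the replicate block. Leaving out each library gave 3 to 4, 4 and 3 to 4. Without Rumen 2 the call of HLX against forebrain was lost. OSR1 in liver against forebrain, at a log2 fold change of -3.26 that did not pass, ran from -6.38 (without Liver 1) to 3.08 (without Forebrain 2, where all its forebrain counts were), and passed without Forebrain 1 at -4.21. Of the other mesenchyme factors, 6 passed in rumen against forebrain, and 3 to 8 without each library. No scaling moved the median log2 fold change of all genes by -0.15 in rumen against forebrain, 0.29 in rumen against liver and -0.48 in liver against forebrain, and upper-quartile scaling by 0.11 in rumen against liver. With no scaling 62.5% of calls were higher in rumen than in liver, against 49.8%, and 39.3% higher in liver than in forebrain, against 53.2%. The factors that passed kept their direction. Over all genes 4515 passed in rumen against forebrain (1878 to 7140 without each library, 7159 with 4 libraries only), 4629 in rumen against liver (2271 to 6870) and 6353 in liver against forebrain (3641 to 7817).

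Libraries with the same number did not deviate together, with correlations across genes of -0.00177 (rumen and liver), -0.0585 (rumen and forebrain) and 0.0754 (liver and forebrain), and the labels do not tie numbers to fetuses. With the replicate block 4, 4 and 3 factors passed. Of the other mesenchyme factors 6, 7 and 6 passed, against 6 in each comparison without it. MEIS2 in rumen against forebrain no longer passed (adjusted p = 0.0617, edgeR), and over all genes 3961, 4021 and 5767 passed. Depth limits the tissues without counts, where levels under the floors of 0.103 to 0.116 CPM could not be seen.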

Other observations

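Forebrain 1 and 2 also differed in other transcription factors. ISL1, which in mouse marks neurons of the basal forebrain as well as foregut mesenchyme, stood at 1.22 and 14.8 CPM in Forebrain 1 and 2, and the mesenchymal factor PRRX1 had 0 and 15 counts there. GATA3 stood at 16.2 and 8.81 CPM in Forebrain 1 and 2, against 0.0765 and 1.17 CPM in Rumen 1 and 2. Of 9 endothelial genes 8 were higher in Forebrain 2, and of 9 stellate and pericyte genes 8 were higher in Forebrain 1. The level of the latter list in forebrain was mainly that of RELN and LHX2. TCF15, a basic helix-loop-helix factor of the somites in the same class as TCF21, stood at 5.36 and 5.38 CPM in Rumen 1 and 2, at 0.0744 and 0.128 CPM in Liver 1 and 2 and at 0.407 and 0.144 CPM in Forebrain 1 and 2.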
